A study of Mus musculus with 4 samples.

Results

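Wnt ligands were followed across 4 organ primordia of the mouse gut at embryonic day E11.5: Wnt2, Wnt2b, Wnt3a, Wnt4, Wnt5a, Wnt5b, Wnt6, Wnt7b and Wnt11. These 9 genes, of 16995 genes that could be named on the array, were found by matching each probe's accession to its gene symbol, and they were read by 10 probes, 1 for each gene and 2 for Wnt5b. Total RNA came from dissected lung, esophagus, stomach and intestine primordia of ICR mice, an outbred strain, all of the same age and with no treatment or mutation named. Each organ was represented by 1 array, in 1 colour (Cy3), so there was no replicate of any organ, no test between organs was possible and no p-value is given. The labels do not say how many embryos went into a sample, and the extraction protocol of every sample speaks of stomach. The organ was taken from the tissue label, which is spelled "gustric" for stomach.

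Wnt proteins are secreted, lipid-modified signals that need Porcn and Wls to leave the cell. They bind Frizzled receptors together with the co-receptors Lrp5 and Lrp6 to stabilise β-catenin, or act through receptors such as Ror2 and Ryk without it. In the embryonic gut, Wnt2 and Wnt2b from the mesoderm beside the foregut are known for setting up the lung field, Wnt7b is a ligand of the lung epithelium, and Wnt5a acts in gut and lung elongation.

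Levels are log2 processed signal minus the 75th percentile of the same array, so that a level of 0 equals that percentile and a difference of 1 is 2-fold. The lung array was dimmer than the rest: its 75th percentile was 32.0 signal units, while the esophagus array reached 379, the stomach array 320.2 and the intestine array 991. The lowest level at which a probe was well above background was therefore −2.39 in lung, but −5.75 in esophagus, −5.78 for the stomach array and −6.92 for the intestine array. A fold is given as "at least" where the gene was too dim on 1 array of the pair, since it is then only a bound. Wnt6 in lung is an exception, described below. The error the arrays give is small and technical: the scanner software put it at a median of 10.1% and at most 12.4% of the signal for member spots well above background, and copies of the same probe differed by a median SD of 0.07 to 0.11 on the log2 scale, by array. Of the genes known for 1 organ, Nkx2-1 of lung was highest there at 2.47, Barx1 of stomach there at 4.49 and Cdx2 of intestine there at 1.90. Cdx1, also an intestinal gene, was not well above background in intestine and was so only in stomach, at −5.51.

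Of the 9 ligands, 4 were well above background in lung (Wnt2, Wnt5b, Wnt7b and Wnt11) and 8 in each of esophagus, stomach and intestine. Of all genes, 56.0% were so in lung, 78.1% in esophagus, 78.7% for stomach and 84.0% for intestine. Wnt3a, a ligand of the presomitic mesoderm and the dorsal neural tube, was not well above background on any array. The plot of levels by organ shows the main pattern, a decline from esophagus to intestine for most ligands.

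**Figure D1:**
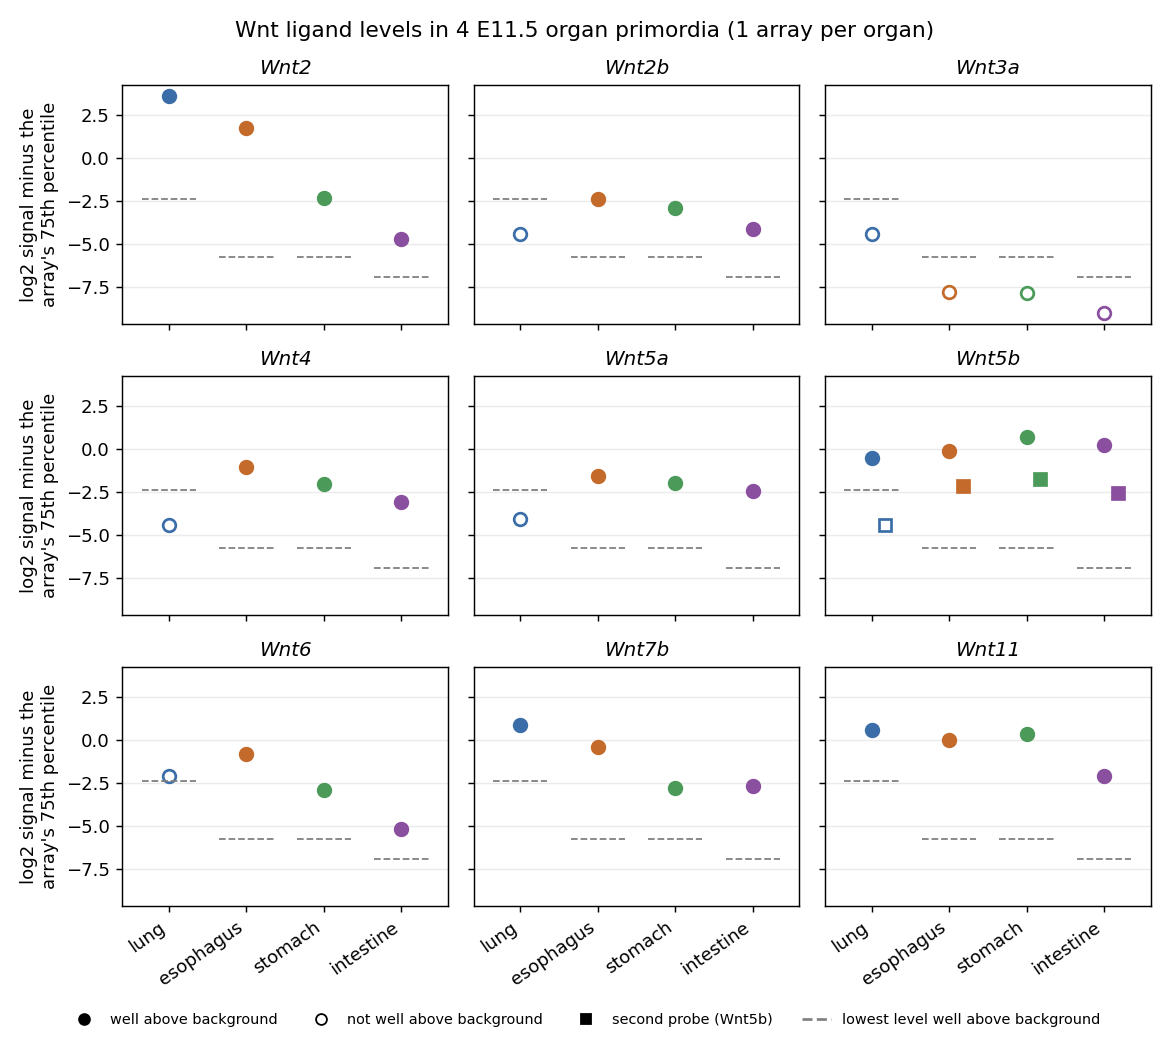
Level of each Wnt ligand (vertical axis, log2 signal minus the array's 75th percentile) on the 4 arrays, with 1 array per organ, filled where well above background and open where not, and a dashed line at each array's lowest level well above background. Wnt2 runs from 3.61 in lung to −4.73 in intestine, Wnt5b stays between −0.51 and 0.71 by its brighter probe, and Wnt3a is open on all 4 arrays.

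Wnt2, the mesenchymal ligand of the lung field, differed most. It stood at 3.61 in lung, at 1.76 in esophagus, at −2.32 in stomach and at −4.73 in intestine. Each organ was thus at least 2-fold above the next along this order: 3.6-fold higher in lung than in esophagus, 16.9-fold higher in esophagus than in stomach and 5.34-fold higher in stomach than in intestine. Lung exceeded intestine 324-fold, wider than the widest difference of 99.9% of the 14060 genes with any fold. Of the 4 ligands well above background in all organs, Wnt2 alone was in the order lung, esophagus, stomach, intestine, as were 6.74% of 9497 such genes. The fold of lung over esophagus is the least firm of these, since it was 0.64 on the log2 scale under normexp background correction, against 1.85.

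Wnt2b, a close relative and its partner in the lung field, followed a flatter course. It was not well above background in lung and stood at −2.41 in esophagus, at −2.89 in stomach and at −4.15 in intestine. Esophagus exceeded stomach 1.39-fold and intestine 3.35-fold, and stomach exceeded intestine 2.4-fold, which was under 2-fold with median centring (0.96 on the log2 scale) and quantile normalization (0.91). Because the esophagus level lay just under the lowest level that the lung array resolved, lung gave no fold for Wnt2b: the arrays show neither a difference nor a likeness there.

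Sequences before the annotated start were read for the ligands with the widest ranges that RefSeq's promoter table holds (GRCm38.p6), Wnt2, Wnt6 and Wnt11, and for Wnt2b as the relative of Wnt2. The table held 10 windows for 7 of the 9 ligands, and had none for Wnt5a and Wnt7b. Each sequence below covers the 250 bases before the start, 5′ to 3′ on the gene's strand: Wnt2 at chr6:18030446-18030695 (minus strand), Wnt2b at chr3:104961710-104961959 (minus strand), Wnt6 at chr1:74771642-74771891 (plus strand) and Wnt11, first of 2 windows, at chr7:98834862-98835111 (plus strand). Capitals mark matches on either strand to 8 motifs: GGGCGG (a GC box), TATAAA (a box near many start sites), CCAAT (a box bound by general factors) and GATAA (bound by GATA factors). The others are CTTTGAT (bound by the TCF/LEF factors of the Wnt pathway), its variant CTTTGAA, then GGTGTGA (bound by the T-box family of factors) and TGTTTAC (bound by forkhead factors).
Wnt2: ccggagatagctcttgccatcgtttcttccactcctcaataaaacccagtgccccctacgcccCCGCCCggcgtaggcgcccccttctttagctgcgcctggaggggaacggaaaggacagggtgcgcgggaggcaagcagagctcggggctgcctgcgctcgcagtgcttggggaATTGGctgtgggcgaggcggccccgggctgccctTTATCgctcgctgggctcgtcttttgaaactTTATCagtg
Wnt2b: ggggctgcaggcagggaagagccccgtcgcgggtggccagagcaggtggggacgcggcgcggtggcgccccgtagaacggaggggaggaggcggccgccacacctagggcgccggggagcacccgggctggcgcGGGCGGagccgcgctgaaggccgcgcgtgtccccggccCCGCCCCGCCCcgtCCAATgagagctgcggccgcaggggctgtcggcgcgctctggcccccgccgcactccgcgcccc
Wnt6: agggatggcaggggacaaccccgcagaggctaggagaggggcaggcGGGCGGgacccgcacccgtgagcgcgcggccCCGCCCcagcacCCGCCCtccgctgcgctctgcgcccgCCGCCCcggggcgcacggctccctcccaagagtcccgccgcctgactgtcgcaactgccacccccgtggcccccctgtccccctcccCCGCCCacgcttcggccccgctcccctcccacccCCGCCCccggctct
Wnt11: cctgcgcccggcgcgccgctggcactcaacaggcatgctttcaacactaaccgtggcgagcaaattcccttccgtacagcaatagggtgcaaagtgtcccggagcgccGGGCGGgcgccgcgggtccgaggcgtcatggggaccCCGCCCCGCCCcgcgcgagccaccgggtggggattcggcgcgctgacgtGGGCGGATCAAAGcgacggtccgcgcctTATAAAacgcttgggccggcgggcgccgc
Wnt2 held 2 matches to GATAA, 36 to 40 and 5 to 9 bases before the start, and 1 each to the GC box and CCAAT. Wnt2b held 3 GC boxes and 1 CCAAT, and Wnt6 held 6 GC boxes and no other motif searched. Wnt11 held 4 GC boxes, a TATA box 24 to 29 bases before the start and a match to CTTTGAT on the opposite strand at 45 to 51 bases, next to a GC box at 52 to 57 bases; 2 of its other GC boxes share 1 base, as do 2 in Wnt2b. Among all 32851 windows of the same length, 32.7% held GGGCGG, 12.4% TATAAA, 33.8% CCAAT, 22.6% GATAA and 3.21% CTTTGAT. The variant CTTTGAA was found in 4.46% of windows, GGTGTGA in 3.33% and TGTTTAC in 3.17%. A match describes the letters only; binding was not measured here. The Wnt2 window had 63.6% G and C and the Wnt2b window 80.8%, against a median of 52.4% over all windows.

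Wnt7b, the ligand of lung epithelium, was high in the anterior organs and low in both others. It stood at 0.89 in lung, at −0.44 in esophagus, at −2.81 in stomach and at −2.66 in intestine. Lung exceeded esophagus 2.51-fold, stomach 13-fold and intestine 11.7-fold, and esophagus exceeded stomach 5.18-fold and intestine 4.65-fold. Stomach was 1.11-fold below intestine, a log2 difference of −0.15 that is close to the SD over probe copies for that pair, 0.11. The difference between lung and esophagus was 0.71 on the log2 scale under normexp, against 1.32. Epithelial markers, 9 of 9 well above background on every array, differed among themselves: the widest difference was 0.76 for Cdh1, 1.03 for Epcam, 2.01 for Krt19 (highest in stomach), 2.11 for Cldn6 (highest in lung) and 3.05 for Foxa2 (lowest in intestine). Their part in the Wnt7b levels was not tested.

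Wnt6, a ligand known from surface ectoderm and other epithelia, showed the steepest decline after Wnt2. It stood at −0.80 in esophagus, at −2.91 in stomach and at −5.17 in intestine, and its lung value of −2.08 was not well above background. By that dim reading, which had a signal error of 24.2%, Wnt6 was 2.43-fold lower in lung than in esophagus, and the difference could be smaller. It was 4.31-fold higher in esophagus than in stomach and 4.79-fold higher in stomach than in intestine. Esophagus exceeded intestine 20.7-fold. Lung against esophagus was under 2-fold with median centring (−0.70 on the log2 scale) and quantile normalization (−0.95). A widest difference of at least 4-fold was seen for Wnt2, Wnt4, Wnt6, Wnt7b and Wnt11, and for 10.4% of the 14060 genes with a fold. Wnt4 was close to that size and below it under median centring (1.53 on the log2 scale), quantile normalization (1.75) and normexp (1.72). With Wnt2, Wnt6 was 1 of 2 ligands at least 2-fold apart at each step from esophagus to stomach to intestine, a pattern of 0.964% of the 12858 genes well above background in those 3 organs.

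Wnt4, a ligand required in kidney and female duct formation, had the same order with smaller steps. It stood at −1.08 in esophagus, at −2.06 in stomach and at −3.11 in intestine, and it was not well above background in lung. It was at least 2.49-fold lower in lung than in esophagus, 1.97-fold higher in esophagus than in stomach and 2.08-fold higher in stomach than in intestine, the last of which was 0.75 on the log2 scale under median centring of the arrays, against 1.06. Esophagus exceeded intestine 4.09-fold. Lung against esophagus was −0.73 under median centring and −0.94 under quantile normalization, against −1.31.

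Wnt5a and Wnt5b, ligands best known for signalling without β-catenin, had the smallest widest differences among ligands with a fold, by the brightest probe. For Wnt5a this holds for esophagus, stomach and intestine only, since its lung differences are bounds. Wnt5a stood at −1.60 in esophagus, at −1.99 in stomach and at −2.46 in intestine, and was not well above background in lung. None of its folds among esophagus, stomach and intestine reached 2, with esophagus above intestine by 1.83-fold. Lung was at least 1.74-fold below esophagus, a bound that does not show the difference to be under 2-fold. It was past 2-fold (at most −1.10 on the log2 scale) with the 75th percentile taken over probes bright on all arrays. The brighter Wnt5b probe stood at −0.51 in lung, at −0.14 in esophagus, at 0.71 in stomach and at 0.23 in intestine. Its widest difference was 2.34-fold, lower in lung than in stomach (−0.84 on the log2 scale under median centring and −0.74 under normexp, against −1.22), and it was 1.80-fold lower in esophagus than in stomach, which passed 2-fold under median centring (−1.05 on the log2 scale). The second Wnt5b probe was not well above background in lung and stood at −2.13 in esophagus, at −1.77 in stomach and at −2.57 in intestine. The mean of both probes, which takes in that dim lung reading, gave log2 differences of −1.94 for lung over stomach and −1.33 for lung over esophagus. Both probes were highest in stomach, but they disagreed on esophagus over intestine, with log2 differences of −0.37 and 0.43, so no order of those organs is given for Wnt5b.

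Wnt11, a ligand of cell movements and of the developing heart and kidney ducts, was nearly level in the first organs and low in the last. It stood at 0.60 in lung, at 0.02 in esophagus, at 0.35 in stomach and at −2.09 in intestine. Lung exceeded esophagus 1.5-fold and stomach 1.19-fold, and esophagus was 1.26-fold below stomach, all under 2-fold, except that lung over esophagus was 1.17 on the log2 scale under median centring. Against intestine, the excess was 6.44-fold in lung, 4.30-fold in esophagus and 5.43-fold in stomach.

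Counted by pair, intestine had no ligand at least 2-fold above another organ by the brightest probe. In the counts that follow, higher and lower mean by at least 2-fold. With the mean of all probes, intestine had 1 above lung, Wnt5b (−1.30 on the log2 scale for lung over intestine), and with no filter on dim probes it had 2. Of all genes, 18.9% and 40.5% were 2-fold apart between lung and intestine, in either direction, under those alternatives. Of 8 ligands with a fold, 6 were at least 2-fold higher in esophagus than in intestine (Wnt2, Wnt2b, Wnt4, Wnt6, Wnt7b and Wnt11), where 11.9% of all genes were, and 0 were higher in intestine, where 8.71% were (20.6% in either direction), with a median log2 difference of 2.07 against −0.13 over all genes. For stomach over intestine, 5 of 8 were higher in stomach, where 7.52% of all genes were, and 0 in intestine, where 4.87% were (12.4% in either direction), with medians of 1.16 and 0.03. For esophagus over stomach, 3 of 8 were higher in esophagus (Wnt2, Wnt6 and Wnt7b), where 5.63% of all genes were, and 0 in stomach, where 4.27% were (9.9% in either direction), with medians of 0.73 and −0.16. With lung, fewer ligands gave a fold. Lung was higher for Wnt2 and Wnt7b and lower for Wnt4 and Wnt6 against esophagus, 4 of 7 ligands, where 25.6% of all genes were 2-fold apart, 16.2% higher in lung and 9.42% higher in esophagus. This split depended on the scaling: median centring gave 3 ligands higher in lung and 0 in esophagus, and quantile normalization gave 2 and 0. Of all genes, 49.5% were 2-fold apart in either direction under median centring and 23.6% under quantile normalization. Against stomach, lung was higher for Wnt2 and Wnt7b and lower for Wnt5b, 3 of 6, where 23.9% of all genes were 2-fold apart, 14% higher in lung and 9.87% higher in stomach. Against intestine, lung was higher for Wnt2, Wnt7b and Wnt11, 3 of 4, where 20.6% of all genes were 2-fold apart, 12.2% higher in lung and 8.4% higher in intestine.

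**Figure D2:**
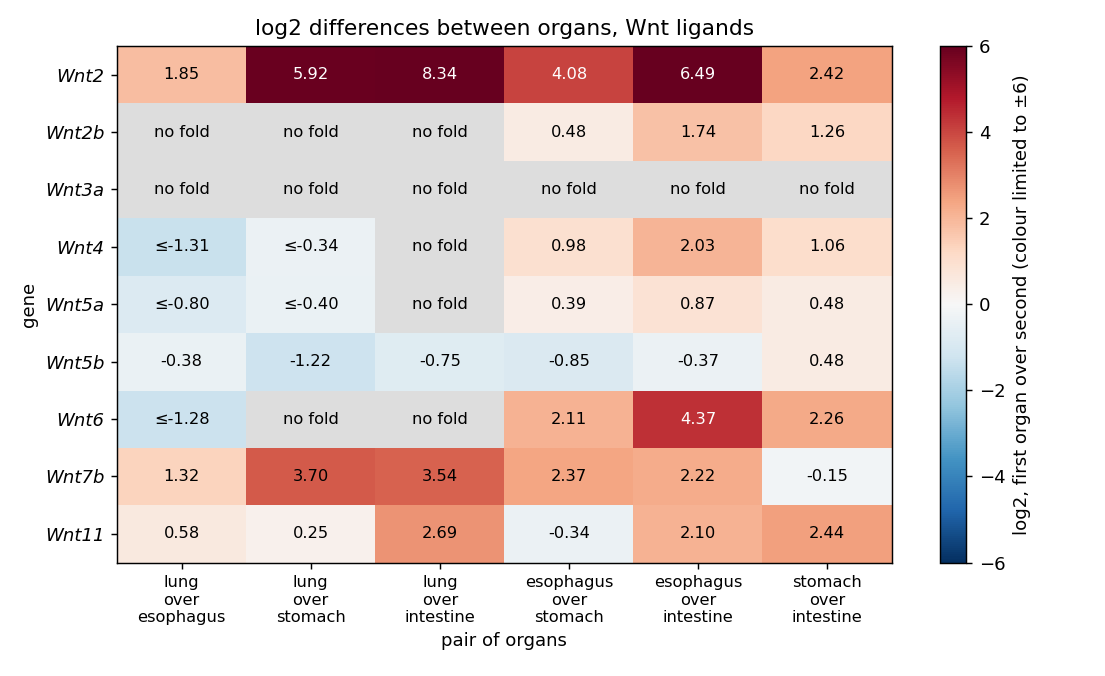
Log2 difference of each ligand, first organ over second, for the 6 pairs of organs, red where the first organ is higher and blue where the second is. Values with ≥ or ≤ are bounds, except that the Wnt6 value with lung is the ratio to its own dim lung reading, and grey cells have no fold. All 8 ligands with a fold except Wnt5b are above 0 for esophagus over intestine, from 0.87 for Wnt5a to 6.49 for Wnt2.

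Against every other organ, lung was at least 2-fold highest for Wnt2 and Wnt7b, where 4.45% of genes were highest in lung by that margin. Esophagus was highest for Wnt6 alone, against 1.12% of genes. No ligand was highest by 2-fold in stomach or in intestine, where 0.372% and 1.11% of genes were. Without the lung array, esophagus was highest for 3 ligands, Wnt2, Wnt6 and Wnt7b. Without the stomach array it was highest for 2, Wnt4 and Wnt6. No share of all genes is given for either count, since the 1.12% holds for all 4 arrays.

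The order esophagus above stomach above intestine, of any size, held for 5 of the 8 ligands well above background in all 3 (Wnt2, Wnt2b, Wnt4, Wnt5a and Wnt6), and the opposite order for 0. Over 12858 genes the shares were 19.9% in this order and 29.8% in the opposite one. This order was looked for after the levels had been seen. The share over all genes depended on the scaling, from 9.53% under median centring to 24.1% with the 75th percentile over bright probes, and on the probe used, at 24.7% with the second brightest probe and 24.9% with the mean of all probes. The count of ligands was 5 under each of these.

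**Figure D3:**
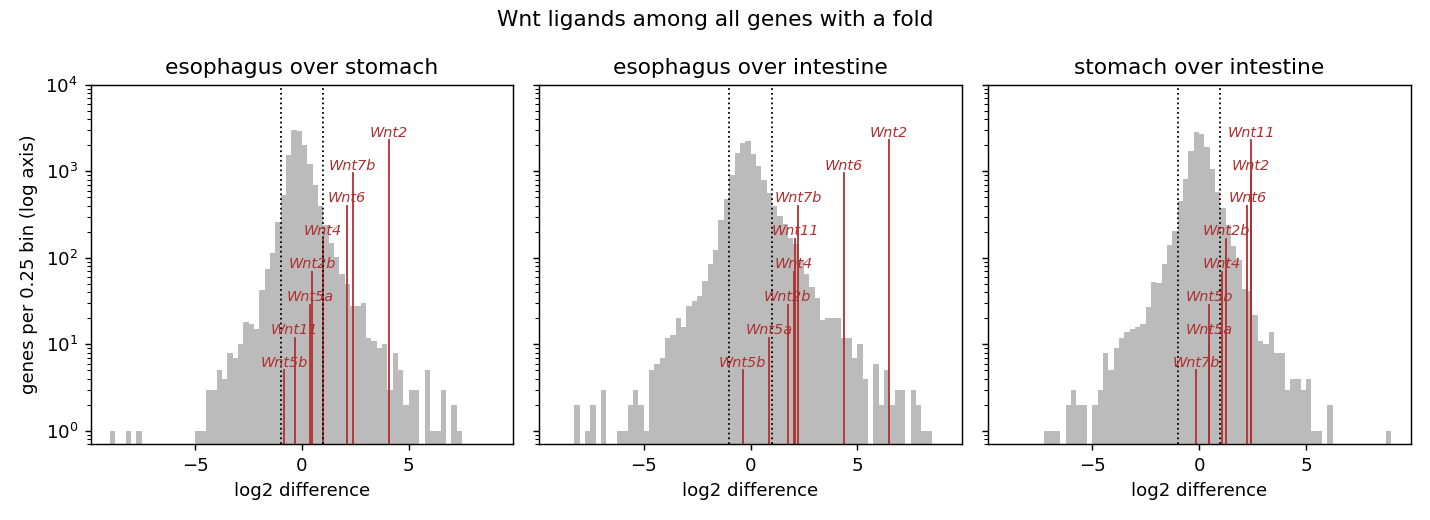
Histograms of the log2 differences of all genes with a fold (grey, genes per bin on a log axis, bounds included) for the 3 pairs of gut organs, with each Wnt ligand marked by a red line whose height has no meaning and 2-fold marked by dotted lines. In esophagus over intestine, 6 ligands lie beyond the right dotted line and none beyond the left.

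Genes of neighbouring tissues also differed between these arrays. The lung genes Nkx2-1 and Sftpc were well above background in esophagus too, at −1.10 and −1.75, but not in stomach or intestine. Tbx5 stood at 3.48 in lung, at 2.46 in esophagus and at −1.49 in stomach. Heart muscle genes, of which 5 of 9 were well above background in lung and 9 of 9 in each other organ, had a summed level (in units of the 75th percentile signal) of 9.95 in lung, of 133 in esophagus, of 3.8 in stomach and of 4.48 in intestine. Skeletal muscle genes (5 measured) summed to 0.471 in lung, to 4.41 in esophagus, to 0.217 in stomach and to 0.0728 in intestine. Nephric genes (6 measured) summed to 4.33 in lung, to 20.4 in esophagus, to 9.86 in stomach and to 1.08 in intestine. Osr1, which is also expressed outside the nephric system, made up most of this sum, and without it the sums were 1.99, 0.689, 0.314 and 0.21. Cdh16, at 0.77, was the only other nephric gene well above background in lung. Liver genes summed to 27.6 in lung, to 10.2 in esophagus, to 3.41 in stomach and to 64.4 in intestine. Mesenchyme genes summed to 276 in lung, to 349 in esophagus, to 223 in stomach and to 174 in intestine, and epithelial genes to 54.5, 42.6, 107 and 53.6 in the same organs. Without the largest gene of each list, the sums were 204, 177, 117 and 126 (without Col1a2) and 26.3, 24.0, 46.2 and 24.6 (without Krt18). Among mesenchyme genes, Col1a1, Col1a2, Twist1 and Prrx1 were highest in esophagus. Pdgfrb, Col3a1 and Vim were highest in lung, and Foxf1 and Pdgfra in stomach. Twist1 was not well above background in lung, and Prrx1 ran from 3.99 in esophagus to −3.59 in intestine. Krt8, Krt18 and Krt19 were highest in stomach, and every other epithelial gene was highest in lung. Red cell genes summed to 782, 226, 357 and 229, and mesothelial genes to 4.33, 3.11, 3.17 and 3.37. Neural tube genes, of which 1 to 4 of 7 were well above background, summed to 1.69, 6.11, 2.29 and 0.369, and pancreas genes, 2 to 6 of 6, to 1.98, 8.51, 5.08 and 3.66. Nkx6-1 is in both lists, and without it the sums were 0.435, 0.136, 0.103 and 0.0761 for neural tube genes and 0.72, 2.53, 2.89 and 3.37 for pancreas genes. No other neural tube gene was well above background in lung, so the lung value of 0.435 is not a measured level of these genes. Of the pancreas genes other than Nkx6-1, Gcg was the brightest in esophagus, at 1.26, and in stomach, at 1.40. Pdx1, Ptf1a and Neurog3 were not well above background in esophagus, and Cpa1 stood at −3.23 there. All the sums include genes that were not well above background. The part of these tissues in the Wnt levels was not tested, and fewer cells of a type cannot be told apart from less RNA per cell.

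The other 10 Wnt genes of the mouse were mostly dim: lung had 1 of them well above background, esophagus 3, stomach 5 and intestine 4. Of all genes, 56.0%, 78.1%, 78.7% and 84.0% were so on these arrays, and the lung array was the dimmest. Wnt9a was nearly even at −1.91 in lung, at −1.85 in esophagus, at −1.52 in stomach and at −1.53 in intestine. Wnt16 ran the other way from most ligands above, at −3.62 in stomach and −2.93 in intestine, at least 6.31-fold lower in esophagus than in intestine. Wnt10a stood at −3.53 in esophagus and at −3.88 in stomach, and was at least 10.48-fold lower in intestine than in esophagus. Wnt1, not well above background in lung, stood at −4.11 in esophagus, at −2.70 in stomach and at −3.87 in intestine. Of 5 with a fold, 0 were at least 2-fold higher in esophagus than in stomach and 2 lower, beside 5.63% and 4.27% of all genes. Against intestine, by the same size, 1 was higher in esophagus and 1 lower (11.9% and 8.71% of all genes). For stomach over intestine, 2 were higher and 0 lower (7.52% and 4.87%). Wnt3, Wnt7a, Wnt8a, Wnt8b and Wnt10b were not well above background on any array.

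Porcn, which attaches the lipid, and Wls, which carries Wnt proteins to the surface, were under 2-fold apart in every pair. Of 9 Frizzled receptors measured, none was at least 2-fold higher in esophagus than in intestine and 1 was at least 2-fold lower, beside 11.9% and 8.71% of all genes. Fzd5 stood at −2.12 in esophagus, at 0.69 in stomach and at −1.14 in intestine, 7.04-fold lower in esophagus than in stomach. Of 9 co-receptors, 3 were at least 2-fold higher in esophagus than in intestine and 0 at least 2-fold lower, beside the same 11.9% and 8.71%. Lgr5, a receptor of R-spondins, was 1 of the 3, at −1.01 in esophagus and −3.87 in intestine. Ror2, a receptor for Wnt5a, was not well above background in lung and stood at −0.06 in esophagus, at 0.61 in stomach and at −0.03 in intestine. Lgr4, another R-spondin receptor, was not well above background in lung either, and stood at 0.50 in esophagus, at 0.82 in stomach and at −0.24 in intestine.

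Secreted modulators went both ways. Of 12 with a fold between esophagus and intestine, 4 were at least 2-fold higher in esophagus and 2 in intestine, where 11.9% and 8.71% of all genes were. Rspo2, an R-spondin that strengthens Wnt signals, stood at 2.81 in lung, at −0.00 in esophagus, at −2.40 in stomach and at −4.71 in intestine, the same order as Wnt2. Notum, an enzyme that removes the Wnt lipid, stood at −0.82, −2.90, −4.16 and −4.80 in those organs. Dkk2, a ligand of Lrp5 and Lrp6, stood at −1.67 in esophagus, at −1.48 in stomach and at 1.64 in intestine, and was not well above background in lung.

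Of 9 genes that respond to β-catenin signalling, 6 were at least 2-fold higher in lung than in esophagus, 7 than in stomach and 7 than in intestine, beside 16.2%, 14% and 12.2% of all genes, and none was at least 2-fold lower in any of these pairs. The median log2 differences were 1.36, 1.69 and 1.57, against 0.28, 0.12 and 0.14 over all genes. Other scalings of the arrays are given for the ligands only, so the dependence of these counts on the scaling is not shown. Lef1, a transcription factor of the pathway, stood at 1.56 in lung, at 0.19 in esophagus, at −1.09 in stomach and at −2.93 in intestine. Sp5 stood at 1.80, −0.60, −0.45 and −3.73. Axin2, a feedback inhibitor widely read as a reporter of the pathway, was nearly even at −1.82, −1.47, −1.79 and −1.67. Between esophagus and intestine, 3 of 9 were at least 2-fold higher in esophagus and 1 in intestine, where 11.9% and 8.71% of all genes were.

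Genes with organ profiles most like those of 5 ligands with a wide range were found by the root mean square difference of log2 levels, each gene centred on its own mean over the organs used. Wnt2 had no close neighbour among 9374 genes well above background on all 4 arrays: Rspo2 was nearest, at 0.71, followed by Lox at 0.90 and Irx2 at 0.92. Wnt7b was nearest to Gprin3 (0.19), Krt23 (0.22) and Nexn (0.24), and Wnt11 to Ly6h (0.23), Cxcl14 (0.25) and Tmem54 (0.31). Over the 3 gut organs and 12685 genes, Wnt4 was nearest to Tanc2, Zfp595 and Sync, at 0.02 to 0.03, and Wnt6 to Tnc, Eya2 and Nfix, at 0.04 to 0.05. The limit to genes well above background wherever the ligand was came after the values had been seen. Under the first rule, which raised dim levels to the lowest of their array, Rspo2 was again nearest to Wnt2, followed by Nkx2-1 at 0.86 and Sftpc at 0.87, while none of the 3 genes nearest to Wnt7b (Arpp21, Cds1 and Mcf2) and to Wnt11 (Ugt8a, Cpb1 and Igfbp6) was well above background in lung. The nearest to Wnt4 were then Tanc2, Rbm3 and Uggt2, and to Wnt6 Eya2, Eya4 and Mme.

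**Figure D4:**
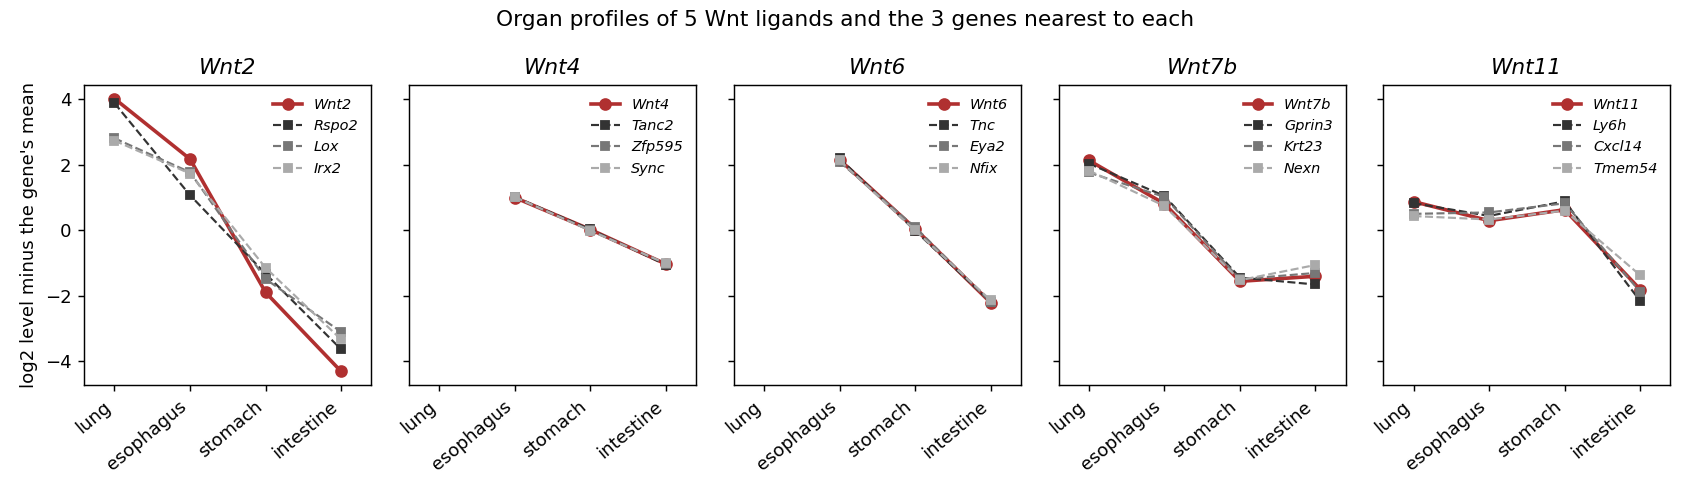
Levels of 5 Wnt ligands (red) and of the 3 genes nearest to each (grey), as log2 level minus the gene's own mean over the organs used, for the organs where the ligand was well above background. The Wnt2 line drops further than its neighbours, and the Wnt11 line and its neighbours drop only in intestine.

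**Figure D5:**
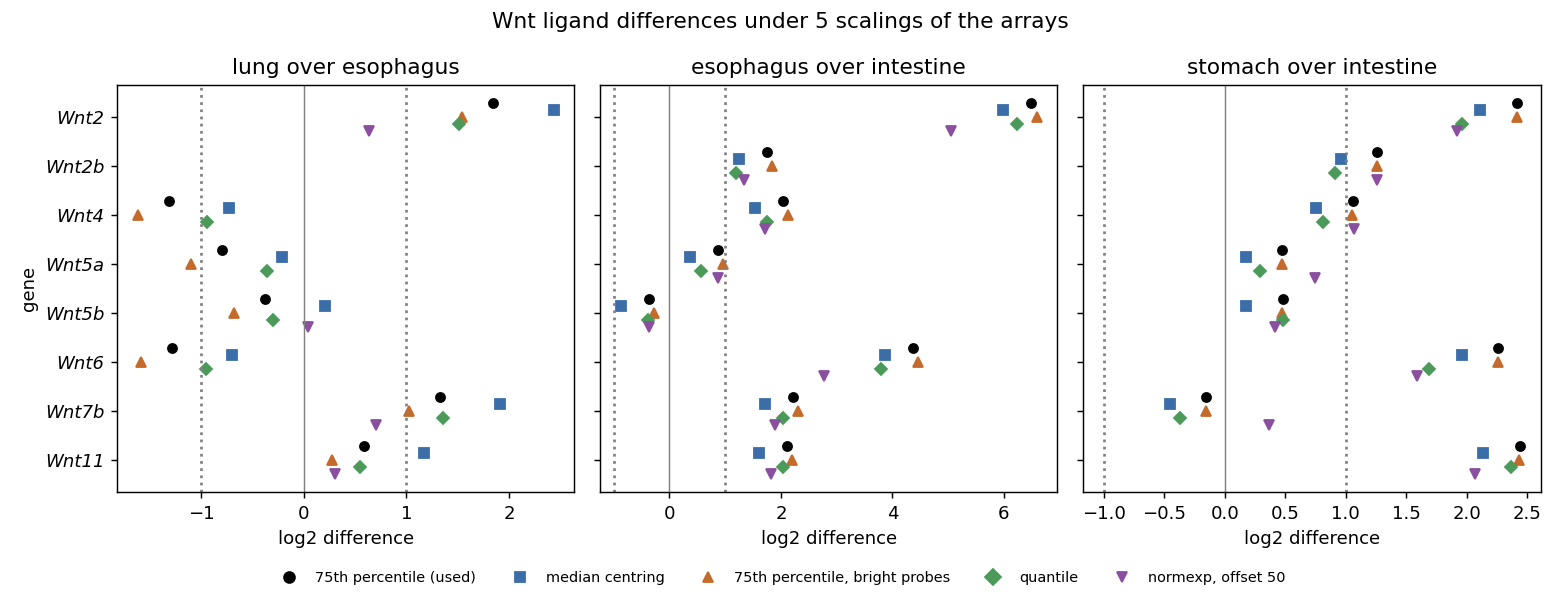
Log2 differences of the ligands for lung over esophagus, esophagus over intestine and stomach over intestine under 5 ways of scaling the arrays, 1 symbol per way, with 2-fold at the dotted lines. In lung over esophagus the symbols of Wnt2 spread from 0.64 under normexp to 2.43 under median centring, while in esophagus over intestine all symbols of Wnt2, Wnt2b, Wnt4, Wnt6, Wnt7b and Wnt11 lie beyond 2-fold.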

How the data were processed

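RNA of 4 samples was read on 1 array each, all on 1 slide and in 1 scan. Per the file headers, signals were extracted with Agilent Feature Extraction 10.5.1.1 (protocol GE1_105_Dec08, design 014868, build mm8), and the deposited processed signal is a background-subtracted, detrended intensity, not scaled between arrays. Flags that accompany it (well above background, outlier, saturated) are of the same software. The deposited series table holds log2 values. Compared with the scanner files, they follow the same scaling as used here (r at least 0.99996), a match that is the only source for their scale, centring and direction. Its column medians were −3.56 (lung), −2.97 (esophagus), −3.17 (stomach) and −3.47 (intestine), and the table served as an alternative.

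Outlier spots were left out, copies of a probe averaged on the log2 scale, and 69 probes dropped. No spot was saturated. A probe was well above background where most of its spots were. Of 41105 probes, 24338 (59.2%) took 1 symbol through their accession from the RefSeq table of GRCm38.p6, 16767 none and 0 several; of several probes of a gene, the brightest on average was used. A bound took the higher of the dim probe's own level and its array's lowest level well above background. Alternatives were median centring, the 75th percentile over probes bright on all arrays, quantile normalization, normexp (offset 50), other filters, other probes and leaving out an array. Normexp used the median spot signal, since the files give no mean. The fold threshold of 2 is a size, not a test. The plan named every probe of each ligand, and per pathway list up to 4 genes of widest difference; Wnt9a, Porcn, Wls and Axin2 were added after their values were seen. The members and lists were chosen with earlier results of these data known. Python 3.11.15, pandas 2.3.3, R 4.3.3 and limma 3.58.1 were used, and the calculation was tested on simulated data.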

Additional observations from a re-analysis of the deposited data

How the results depend on the processing

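Among 24 log2 differences of at least 2-fold between organs, none changed sign under any of 9 alternatives (212 values), 17 stayed at least 2-fold under each alternative that gave a value, and 13 values dropped below it, while 9 values of differences under 2-fold passed it. Many of these values could not move. For a ligand with 1 probe, well above background on both arrays, other filters and probes return the same value, and the deposited table follows the same scaling. Only median centring, the 75th percentile over bright probes, quantile normalization and normexp could shift such a value. The count of ligands 2-fold apart between stomach and intestine, 5, was 3 under median centring and 3 under quantile normalization. Of all genes, 12.4% were so apart, against 13.2% and 10.3% under those scalings. Between lung and esophagus the count of ligands was 4, against 2 under quantile normalization and 0 under normexp. It was 2 with only genes well above background on both arrays and 7 with no filter. Of all genes, 25.6% were apart there, against 23.6%, 23.0%, 24.3% and 44.3% under those alternatives in turn. With no filter the count of ligands was also 7 for lung over stomach and 7 for lung over intestine, against 3 and 3, because values below background then counted. The shares of all genes were then 42.7% and 40.5%, against 23.9% and 20.6%. Ligands highest in lung numbered 2, and 0 under normexp. Ligands highest in esophagus numbered 1, against 2 under the 75th percentile over bright probes. They numbered 0 under median centring, quantile normalization, normexp and the filter on both arrays. Leaving out 1 array gave 1 to 3 ligands. For ligands highest in lung or esophagus, no share of all genes is given under these alternatives. Median centring moved the median of all genes for lung over esophagus to 0.91, against 0.28, and for esophagus over intestine to −0.62, against −0.13. The count in the order esophagus, stomach, intestine was 5, or 6 under normexp, where 19.7% of 12858 genes were in this order. No paired analysis was possible because each organ has 1 array. The lung array limits every lung comparison: 5 of 9 ligands were not well above background there.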
